A study of Mus musculus with 47 samples.

Results

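A set of 30 genes that mark striatal medium spiny neurons was followed in mouse cerebral cortex, out of 48795 genes in the deposited table. They were chosen by name as projection neuron genes known to fall in Huntington models, with earlier results of these data known, and all 30 had a row in the table. Of these, 29 passed the filter on low counts and were tested. The other, Isl1, encodes a transcription factor of the Drd1 lineage and had 0 counts in 34 of 47 libraries and at most 2 in any.

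Medium spiny neurons are the inhibitory output neurons of the striatum and receive dense dopamine and cortical input. Neurons of the direct pathway carry the dopamine receptor Drd1 and make the peptides encoded by Tac1 and Pdyn, and those of the indirect pathway carry Drd2 and Adora2a and make enkephalin from Penk. In both, receptors act through the G protein encoded by Gnal, the cyclase Adcy5, cAMP and protein kinase A, which phosphorylates DARPP-32 (Ppp1r1b) so that it inhibits a protein phosphatase. Loss of these transcripts from the striatum is a hallmark of Huntington models, but many of the genes are also used by cortical neurons.

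RNA was sequenced from the cortex of 47 mice of the C57BL strain at 6 months of age, 23 females and 24 males. Without Q140 there were 8 WT (wild type) mice, 8 Ccdc82+/- and 8 Ccdc82-/-. With Q140 there were 8 on the WT background, called Q140 here, 8 Q140 Ccdc82+/- and 7 Q140 Ccdc82-/-. Q140 is a knock-in allele with an expanded CAG repeat in mouse Htt, carried in 1 copy by the 23 mice described as with Q140, in every cell type that expresses Htt. How Ccdc82 was disrupted is not stated in the sources used here, and reads from the gene remained in the knockouts. Each sample was numbered as a separate mouse. The crosses address whether loss of Ccdc82 changes expression with or without Q140.

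Total counts per library were 43554594 to 61370843, with a median of 50473683. Ccdc82 was 16.2 ± 1.58 CPM (reads scaled to library size, SD, n = 8) in WT, 10.9 ± 0.962 CPM in Ccdc82+/- and 5.32 ± 0.595 CPM in Ccdc82-/-. With Q140 it was 15.6 ± 0.996 CPM, 11.4 ± 0.875 CPM in Ccdc82+/- and 5.51 ± 0.426 CPM (n = 7) in Ccdc82-/-. In 5 mice, 2 or more of the genes stood apart from the rest of their group, and values without a mouse are given beside the results they move.

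Levels of the genes in cortex lay far apart. Levels between genes were compared in FPKM (per length of gene and size of library), as medians over the 47 mice. The 3 highest were Rgs4, a regulator that shortens G protein signals, at 184 FPKM (163 to 205), Hpca, the calcium sensor hippocalcin, at 164 FPKM (146 to 183), and Arpp19, whose phosphorylated protein inhibits phosphatase PP2A, at 74.1 FPKM (65.1 to 81.2). The 3 lowest were Isl1, at a median of 0, Drd2 at 0.301 FPKM (0.128 to 0.428) and the orphan receptor Gpr6 at 0.467 FPKM (0.189 to 0.691). Drd2 rested on 10 to 38 counts per library and Gpr6 on 17 to 60.

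Among receptors, the cannabinoid receptor Cnr1 was the highest at 23.1 FPKM. The dopamine receptor Drd1 followed at 1.63 FPKM (1.22 to 2.12), with the adenosine receptor Adora2a at 0.752 FPKM (0.512 to 1.04), and the ranges of these 2 over mice did not overlap. Penk led the peptide precursors at 20.9 FPKM (16.1 to 31.8), above Pdyn, the dynorphin precursor, at 7.94 FPKM (6.63 to 9.69), and Tac1, the substance P precursor, at 1.92 FPKM (1.52 to 2.51). Drd1 and Tac1 did overlap.

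In the cAMP cascade, levels ran from Arpp19 and the calmodulin-dependent phosphodiesterase Pde1b (44.3 FPKM) to the tyrosine phosphatase STEP encoded by Ptpn5 (37.2 FPKM), Ppp1r1b (25.7 FPKM, 20.8 to 29.5), Gnal (24.1 FPKM), Arpp21 (23.1 FPKM), the G protein subunit Gng7 (18.6 FPKM), Adcy5 (17.4 FPKM) and the phosphodiesterase Pde10a (6.11 FPKM). Ppp1r1b, Gnal and Arpp21 overlapped over mice. Small GTPase genes were spread out, with Rasd2, the striatal GTPase Rhes, at 30.1 FPKM and the exchange factor Rasgrp2 at 1.56 FPKM, and Rgs9, which acts at dopamine receptors in the striatum, stood at 1.30 FPKM. The transcription factors Foxp1 and Bcl11b were at 9.69 and 6.56 FPKM. The sodium channel subunit Scn4b reached 42.0 FPKM and the kinase gene Dclk3 15.6 FPKM, while Actn2, an actin crosslinker of dendritic spines, the calcium release channel gene Ryr1 and the synapse protein gene Syndig1l stood at 2.15, 1.38 and 0.474 FPKM.

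**Figure D1:**
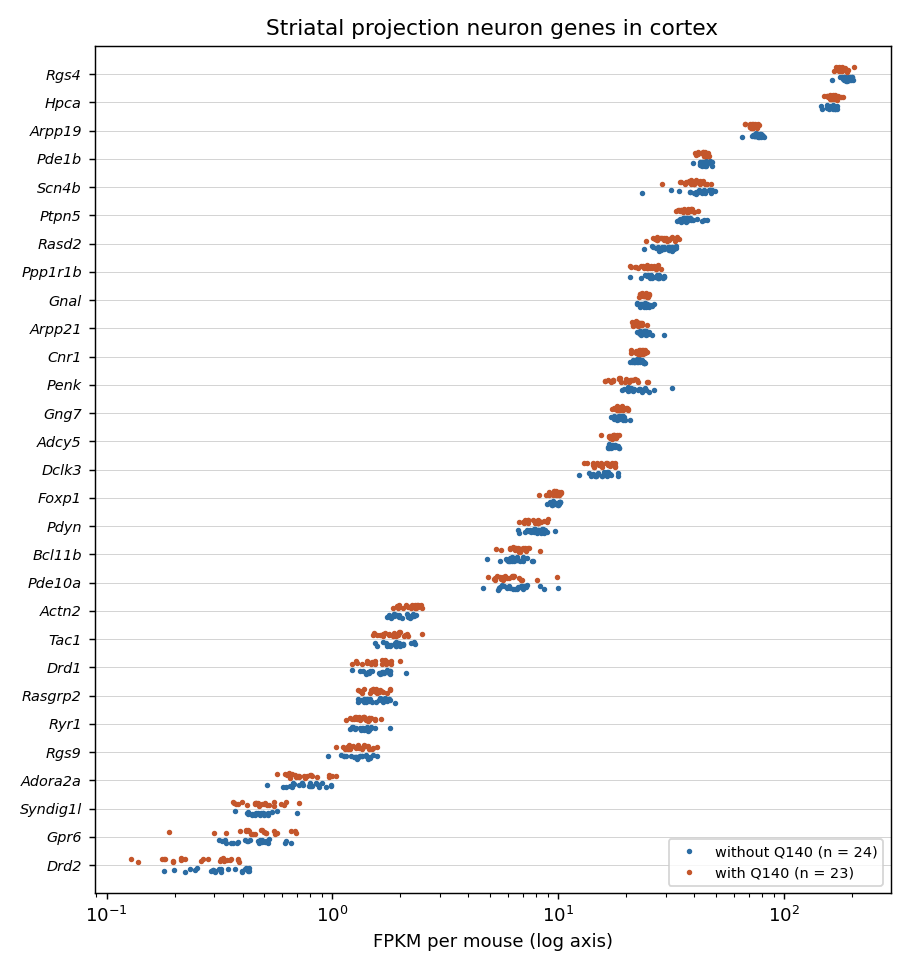
FPKM of the 29 tested genes in each of 47 mice, on a log axis, with 24 mice without Q140 in blue and 23 with Q140 in orange. The 2 colours overlap for every gene, and the genes run from 0.301 FPKM for Drd2 to 184 FPKM for Rgs4 at the median.

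Genes that are nearly confined to the striatum gave little signal. From a separate list of 20 striatal genes outside the members, the transcription factor Six3 had 0 to 7 counts per library and the dopamine receptor Drd3 0 to 2. Lhx8, of cholinergic neurons, had 0 to 2 counts, and Chat, which makes acetylcholine, 12 to 50. The summed level of the 20 genes was 50.3 to 59.9 FPKM with Q140 and 48.6 to 58.8 FPKM without. In these pieces of whole cortex, fewer cells of a type and less RNA per cell cannot be told apart.

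Scatter between mice of the same genotype and sex was modest. The median SD of log2 CPM after removal of genotype and sex was 0.117 over the 29 genes and 0.116 over all genes tested. It was lowest for Adcy5 (0.0521) and Pde1b (0.0570) and highest for Drd2 (0.421) and Gpr6 (0.310), which had the fewest counts. Among well counted genes, the widest scatter was that of Pde10a, with an SD of 0.245, and Scn4b, with 0.206.

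With Q140, averaged over the 3 Ccdc82 genotypes, 3 of the 29 genes fell and 0 rose (adjusted p under 0.05), where 0.876% of all 19174 genes tested were called, 0.537% lower and 0.339% higher. The 3 were Arpp21, Arpp19 and Rgs4. At an unadjusted p under 0.05, 6 genes lay below 0 and 1 above, beside 9.18% of all genes called at that threshold in either direction. Differences lay below 0 in 21 of 29 genes (72.4%) and in 49.0% of all genes. Their median log2 difference was -0.02, against 0.00085 over all genes.

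Arpp21 encodes a phosphoprotein that binds RNA and, in its short form, the calcium sensor calmodulin. It lies on the minus strand at chr9:112065091-112235938 (GRCm38, GENCODE M21), and one of its introns holds the microRNA gene Mir128-2. Its host transcript was counted here and the mature microRNA was not. The mature sequence of miR-128-3p from RefSeq, at chr9:112118644-112118664 on the minus strand, is shown because a host gene and its intronic microRNA share a transcript. Capitals mark the seed, bases 2 to 8.
miR-128-3p: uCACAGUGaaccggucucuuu

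In WT mice Arpp21 was at 400.3 CPM at the lowest, 422 at the median and 513 at the highest, and in Q140 mice at 377, 386 and 404 CPM. In Ccdc82+/- mice it was at 386, 416 and 462 CPM, and at 369.6, 395 and 428 CPM when Q140 was added. In Ccdc82-/- mice it was at 395, 417 and 446 CPM, and at 379, 389 and 402 CPM with Q140. Of the 23 mice with Q140, 22 lay below 419 CPM, the median of mice without it, and 9 lay below every mouse without it, although the groups overlapped on each Ccdc82 genotype. The log2 level of Arpp21 fell by 0.11 (SE 0.0204, adjusted p = 0.0014), and its level fell by 7.31%. The highest WT mouse (M1, 513 CPM) stood apart from its group. Without that mouse the log2 difference was -0.10 (adjusted p = 0.000317), and Arpp21 was called in all 47 fits that left out 1 mouse each. The lincRNAs 2310075C17Rik, which lies within an intron, and 2900079G21Rik, which also meets an exon, overlap Arpp21 on the opposite strand. The kit was stranded, but the sources used here do not state the strand setting of the counting. Reads of 2900079G21Rik may therefore be mixed with those of Arpp21. For 2310075C17Rik this would hold only if reads in introns were counted.

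Arpp19 encodes a small relative of endosulfine and lies on the plus strand at chr9:75037614-75060313. Its lowest, median and highest levels were 358, 377 and 406 CPM in WT and 352, 359 and 380.1 CPM in Q140 mice. They were 319, 382 and 397 CPM in Ccdc82+/- and 328, 359.6 and 385 CPM with Q140 added, and 358, 381 and 405 CPM in Ccdc82-/- and 336, 357 and 384 CPM with Q140. Mice with Q140 sat in the lower part of the range, 20 of 23 of them below the median of mice without it (379 CPM), and none below the lowest of those mice, Ccdc82+/- M1 at 319 CPM, which stood apart. Below the next lowest, at 358 CPM, lay 8 of the 23. Its log2 level fell by 0.07 (SE 0.0168, adjusted p = 0.019), and its level fell by 4.83%. Without Ccdc82+/- M1 the log2 difference was -0.08 (adjusted p = 0.00078). When plate column was added to the model the adjusted p was 0.0619, the highest of 13 alternatives, which began at 0.0028.

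Rgs4 lies on the minus strand at chr1:169741477-169747642. Its lowest, median and highest levels were 562, 602 and 616 CPM in WT and 531, 546 and 591 CPM in Q140 mice, and the groups overlapped only between 562 and 591 CPM. They were 499.8, 577 and 634 CPM in Ccdc82+/- and 515, 541 and 585 CPM with Q140 added, and 553, 589 and 625 CPM in Ccdc82-/- and 549, 567 and 633 CPM with Q140. Rgs4 lay below the median of mice without Q140 (587 CPM) in 21 of 23 mice with it. Its log2 level fell by 0.07 (SE 0.019, adjusted p = 0.0369), and its level fell by 5.04%. Without Ccdc82+/- M1 the log2 difference was -0.08 (adjusted p = 0.00319). Over 13 alternatives the adjusted p ran from 0.0205 to 0.116, the latter when plate column was added to the model. The call was lost in 17 of the 47 fits without 1 mouse, with an adjusted p of at most 0.0642. Those mice were WT F4 and M4, Ccdc82+/- F1, F4 and M4, Ccdc82-/- F3, M1 and M4, Q140 F1 and F4, Q140 Ccdc82+/- F1, F2 and F3, and Q140 Ccdc82-/- F1, F3, M1 and M3.

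Libraries were spread over 6 plate columns, each with mice of both kinds. In all 6 columns the mean log2 CPM was lower with Q140 for Arpp21 (by column, differences from -0.20 to -0.06), for Arpp19 (-0.11 to -0.02) and for Rgs4 (-0.11 to -0.03). The same held for Penk, which was not called (-0.28 to -0.03), and Ppp1r1b and Drd2 were lower in 5 of 6 columns. The column means were not adjusted for sex or Ccdc82 genotype. These genes were picked in the same mice, so the shared signs are not independent support. The -0.20 for Arpp21 came from column 3, which held WT M1. With plate column in the model, only Arpp21 was called.

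RefSeq (GRCm38.p6) gives the 250 bases upstream of a start of each of the 3 genes, shown because the genes fell together and because protein kinase A signals reach promoters through the cAMP response element. Its core, TGACG, was searched on both strands and is in capitals where found. Arpp21 has 9 RefSeq starts and the window shown matches the start of 3 GENCODE transcripts, at chr9:112187927-112188176 (minus strand). Arpp19 has 2, with the window at chr9:75037364-75037613 (plus strand), and Rgs4 has 1, at chr1:169747643-169747892 (minus strand).
Arpp21: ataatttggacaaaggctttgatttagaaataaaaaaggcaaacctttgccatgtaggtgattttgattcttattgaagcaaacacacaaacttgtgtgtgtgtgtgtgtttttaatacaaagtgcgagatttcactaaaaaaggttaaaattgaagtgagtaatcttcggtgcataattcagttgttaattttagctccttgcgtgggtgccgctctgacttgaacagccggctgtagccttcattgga
Arpp19: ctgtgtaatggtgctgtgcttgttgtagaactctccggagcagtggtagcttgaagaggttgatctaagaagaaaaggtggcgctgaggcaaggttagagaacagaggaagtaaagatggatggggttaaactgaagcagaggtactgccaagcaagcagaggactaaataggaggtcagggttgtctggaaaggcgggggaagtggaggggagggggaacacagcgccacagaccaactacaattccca
Rgs4: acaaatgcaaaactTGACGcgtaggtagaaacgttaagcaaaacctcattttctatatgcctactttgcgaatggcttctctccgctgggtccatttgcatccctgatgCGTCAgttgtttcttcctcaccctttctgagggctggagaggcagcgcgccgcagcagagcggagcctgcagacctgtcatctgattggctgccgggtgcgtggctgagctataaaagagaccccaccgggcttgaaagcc

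The Rgs4 window held the core 2 times, and the windows shown for Arpp21 and Arpp19 held no match. Matches in the windows at the other starts of Arpp21 and Arpp19 are not given here. The core was found in 17.8% of 32851 mouse windows of this length and in 8 of the 47 windows (17%) that belong to 24 of the 30 genes. The full palindrome TGACGTCA, which contains the core, was found in 1.55% of all windows. These are matches of letters, and binding was not measured.

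Penk and Ppp1r1b came next by p-value and did not pass the test. Penk was at 33.2, 36.6 and 43.9 CPM (lowest, median, highest) in WT and 26, 32.2 and 36.6 CPM in Q140 mice. It was at 31.6, 34.7 and 52.8 CPM in Ccdc82+/- and 27, 33.6 and 39.8 CPM with Q140 added, and at 31.5, 35.3 and 41.2 CPM in Ccdc82-/- and 27.8, 30.4 and 40.5 CPM with Q140. The lower part of the range was held by mice with Q140, 11 of which lay below every mouse without it. Penk differed by -0.19 in log2 level (SE 0.0527, adjusted p = 0.0775). DESeq2 (adjusted p = 0.0452) and a random block for the number in the library names (0.0391) both called it, and over 13 alternatives the adjusted p ran up to 0.186. It was also called without Q140 Ccdc82-/- M3 (adjusted p = 0.0294) and without Q140 Ccdc82+/- M4 (0.0424).

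Ppp1r1b was at 68.9, 78.4 and 86.2 CPM in WT and 61.2, 73.4 and 84.6 CPM in Q140 mice. It was at 60.1, 76.7 and 86.2 CPM in Ccdc82+/- and 64.4, 70.6 and 77.1 CPM with Q140 added, and at 73.1, 79.5 and 86.3 CPM in Ccdc82-/- and 61.3, 72.4 and 80.5 CPM with Q140. The lowest mouse without Q140 (Ccdc82+/- M1, 60.1 CPM) lay below every mouse with it. Ppp1r1b differed by -0.11 in log2 level (SE 0.0324, adjusted p = 0.121), and by -0.13 with an adjusted p of 0.00683 without that mouse. Over 13 alternatives its adjusted p ran from 0.0181 to 0.253.

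**Figure D2:**
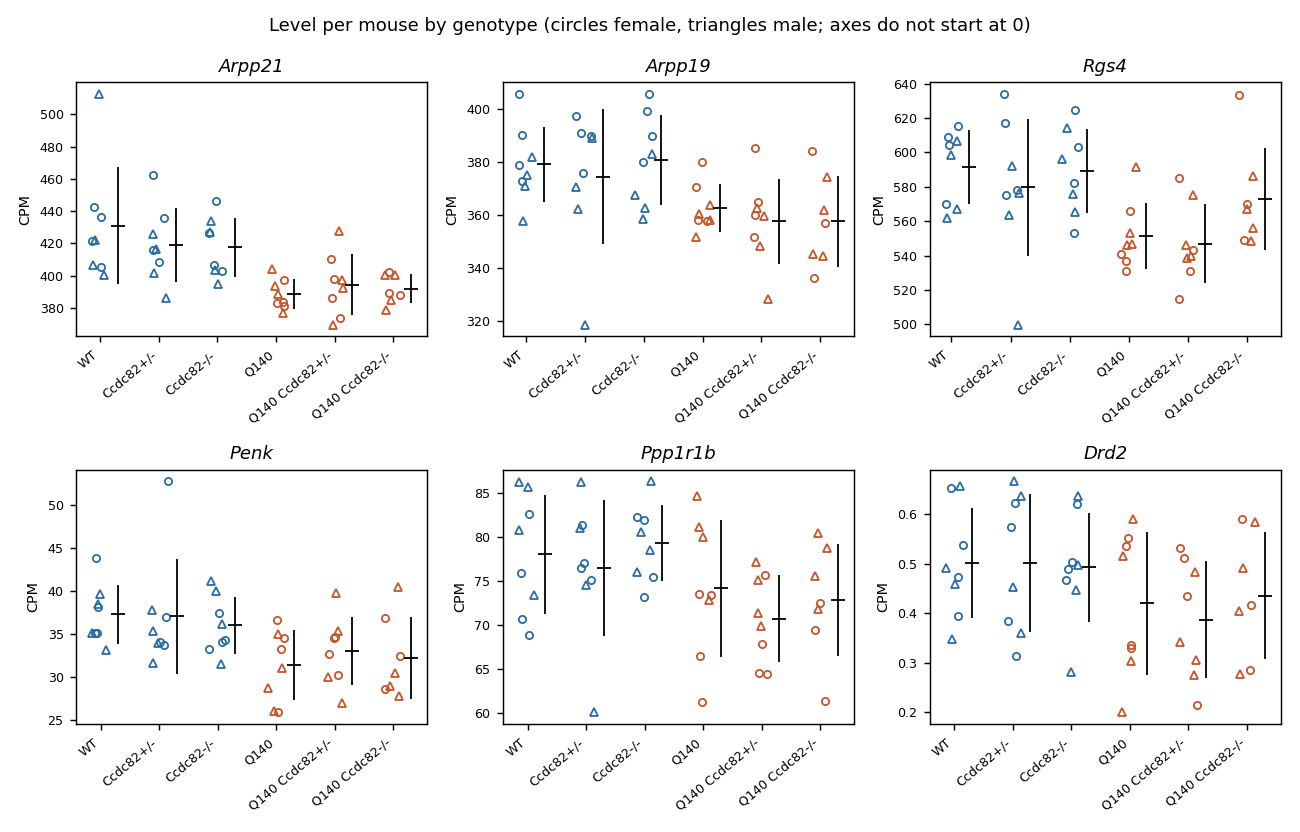
CPM of 6 genes in each mouse by genotype (circles female, triangles male, blue without Q140 and orange with it), with the mean and SD of each group beside the points. Arpp21, Arpp19 and Rgs4 sat lower with Q140, with overlap, and Drd2 was below 1 CPM in every mouse.

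None of the other genes that define the 2 output pathways was called. Drd2 differed by -0.27 in log2 level (SE 0.121, adjusted p = 0.467) on 0.413 ± 0.127 CPM (n = 23) with Q140 and 0.499 ± 0.116 CPM (n = 24) without. Drd1, at 5.57 ± 0.70 CPM with Q140 and 5.68 ± 0.677 CPM without, had a difference of -0.03 (SE 0.0517, adjusted p = 0.92). Adora2a, at 1.92 ± 0.330 and 1.96 ± 0.313 CPM, had one of -0.03 (SE 0.0662, adjusted p = 0.955). The error for Drd2 was the widest of the 29, and its unadjusted p was 0.0325. Among peptides, Pdyn had a difference of -0.03 (SE 0.0232, adjusted p = 0.745) and Tac1 one of -0.05 (SE 0.0470, adjusted p = 0.843).

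Above 0, Actn2 was the furthest, at 8.08 ± 0.681 CPM with Q140 and 7.54 ± 0.688 CPM without (log2 difference 0.10, SE 0.0379, adjusted p = 0.311). Bcl11b followed at 54.6 ± 5.27 and 52.3 ± 5.19 CPM (0.06, SE 0.0399, adjusted p = 0.698). Hpca, at 479 ± 22.98 and 475 ± 21.2 CPM, had a difference of 0.01 (SE 0.0160, adjusted p = 0.893), and Gpr6 one of 0.05 (SE 0.0918, adjusted p = 0.926).

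By role, the cAMP and phosphatase genes held 2 of the 3 calls, with 8 of 9 genes below 0 and a median of -0.04. The G protein regulators held the other, with 4 of 4 below 0 and a median of -0.01. The 5 receptors (3 below 0), 3 peptide precursors (3 below 0), 2 tested transcription factors (1 below 0) and 6 channel, calcium and scaffold genes (2 below 0) held 0 calls each.

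**Figure D3:**
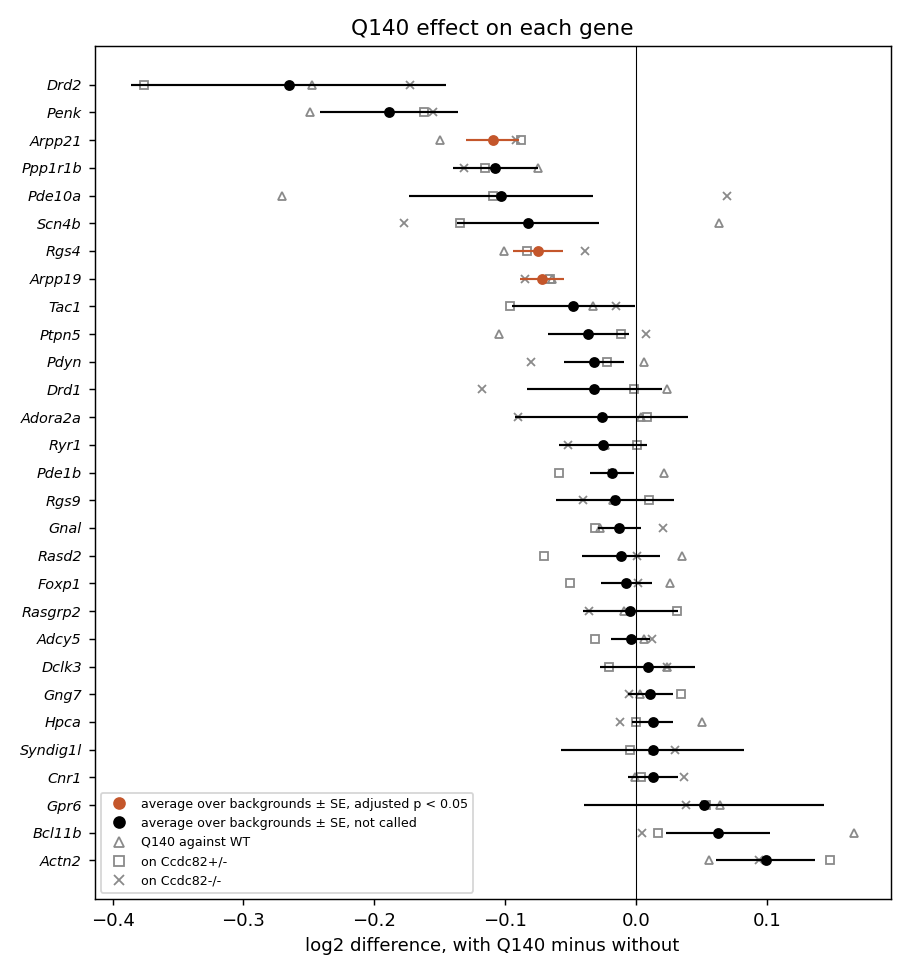
Log2 difference with Q140 minus without, for 29 genes, averaged over the Ccdc82 genotypes (circles, ± SE, orange where the adjusted p is under 0.05) and on each Ccdc82 genotype (grey symbols). Drd2 lies furthest below 0 with the widest error, and Arpp21, Arpp19 and Rgs4 have small differences with narrow errors.

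On single Ccdc82 genotypes 0 of the 29 genes passed the test. For Q140 against WT, 0.0313% of all genes were called. At an unadjusted p under 0.05, 5 of the 29 genes lay below and 1 above 0, beside 6.93% of all genes in either direction. DESeq2 called 1 here, Arpp21 (log2 difference -0.15, adjusted p = 0.036), where edgeR gave -0.15 and an adjusted p of 0.108, or -0.11 and 0.221 without WT M1. On Ccdc82+/- 0.0313% of all genes were called, and the unadjusted threshold was passed by 5 of the 29 genes below and 1 above 0, beside 5.18% of all genes. On Ccdc82-/- 0.0209% were called, and it was passed by 3 below and 0 above, beside 4.17% of all genes. DESeq2 called 0 on each of these 2 genotypes.

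Arpp21 differed by -0.15, -0.09 and -0.09 on WT, Ccdc82+/- and Ccdc82-/-, and Arpp19 by -0.06, -0.07 and -0.08. Rgs4 differed by -0.10, -0.08 and -0.04, and Penk by -0.25, -0.16 and -0.15. All 4 genes had the same sign on each genotype, although the value for Penk on Ccdc82+/- was -0.08 without Ccdc82+/- F4, the mouse with 52.8 CPM. The 4 genes were those with the smallest p in the average over these genotypes, so a shared sign was favoured by that choice.

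Pde10a, which hydrolyses cAMP and cGMP, differed by -0.27, -0.11 and 0.07. Its values moved with single mice, and its sign on Ccdc82-/- rested on a single mouse. Without Q140 Ccdc82-/- F1, which was at 125 CPM, the value on Ccdc82-/- was -0.05, and without WT F1, at 128 CPM, the value on WT was -0.17. Without Ccdc82+/- F4, at 111 CPM, the value on Ccdc82+/- was -0.03. Scn4b differed by 0.06, -0.13 and -0.18, and its value on WT was -0.02 without WT M1, the lowest mouse at 117 CPM.

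The differences between these effects were tested directly. For the interaction of Q140 with Ccdc82+/- 0% of all genes and 0 of the 29 were called, and 0 of the 29 had an unadjusted p under 0.05, beside 3.52% of all genes. The same counts held for Ccdc82-/-, with 0% of all genes called and 2.96% at the unadjusted threshold, and DESeq2 called 0 in both. Pde10a had the largest interaction among the 29 genes, 0.34 with Ccdc82-/- (SE 0.173, adjusted p = 1.0). Without WT F1 and Q140 Ccdc82-/- F1, both high in Pde10a, it was 0.10 (SE 0.143, adjusted p = 1.0).

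Loss of Ccdc82 called 0 of the 29 genes in each contrast, by edgeR and by DESeq2. In each of these contrasts 1 gene of all those tested was called (0.00522%). At an unadjusted p under 0.05, the count of the 29 without Q140 was 0 for Ccdc82+/- and 0 for Ccdc82-/-, beside 3.60% and 3.23% of all genes. With Q140 it was 2 for each, beside 5.42% and 4.09%. Averaged over mice with and without Q140 it was 4 for Ccdc82+/- and 1 for Ccdc82-/-, beside 5.31% and 4.65%. Hpca was among them in both averages, at -0.04 (SE 0.0193, adjusted p = 0.905) in Ccdc82+/- and -0.04 (SE 0.0197, adjusted p = 1.0) in Ccdc82-/-. Arpp21 differed by -0.01 (SE 0.0247) in Ccdc82+/- and -0.02 (SE 0.0252) in Ccdc82-/-. Drd2, Scn4b, Arpp19, Dclk3 and Arpp21 share chromosome 9 with Ccdc82, and lie 36, 31.8, 61.7, 98.1 and 98.8 Mb from it.

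The wider cAMP and dopamine pathway was read in the same way. Of 59 partner genes, such as G protein subunits, cyclases, protein kinase A and phosphatase subunits, 58 were tested. With Q140, 3 of the 58 fell and 0 rose, with a median of -0.01, where 0.537% of all genes were called lower and 0.339% higher. Among the 3 were Camk2a, the calcium-dependent kinase of excitatory synapses (-0.08, adjusted p = 0.000378), and Ppp1cb, a catalytic subunit of the phosphatase that DARPP-32 inhibits (-0.06, adjusted p = 0.00568).

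Of the 20 striatal genes outside the members, 18 were tested, 1 rose and 0 fell, with a median of 0.00395. Markers of cortical cells were read beside these values. Among 10 upper layer markers, Lamp5, a membrane protein of upper layer neurons, fell (-0.11, adjusted p = 0.042) and 0 rose, and their summed level was 223 to 261 FPKM with Q140 and 233 to 291 FPKM without. Of 11 deep layer markers 0 were called, at 78.1 to 99.8 FPKM with Q140 and 74.9 to 101 FPKM without. Of 12 interneuron markers 0 were called, at 789 to 892 FPKM with Q140 and 796 to 917 FPKM without. With the mean log2 CPM of each layer list as covariates, Arpp21, Arpp19 and Rgs4 were still called. Arpp21 then differed by -0.09 (adjusted p = 0.00054).

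Of 10 astrocyte markers 4 fell and 0 rose. They were Glul, which makes glutamine (-0.11), the potassium channel gene Kcnj10 (-0.14), the aldolase gene Aldoc (-0.10) and the glutamate transporter gene Slc1a2 (-0.08). The other markers, none of them called, went both ways. Aqp4 (0.07), S100b (0.05) and Gfap (0.04) lay above 0, and Aldh1l1 (-0.06), Gja1 (-0.04) and Slc1a3 (-0.02) below. The summed astrocyte level was 1141 to 1317 FPKM with Q140, with a median of 1174, and 1171 to 1376 FPKM without, with a median of 1258. Of 10 oligodendrocyte markers Ugt8a, of myelin lipid synthesis, fell (-0.13), at sums of 337 to 519 FPKM with Q140 and 297 to 481 FPKM without. Of 10 microglia markers Ctss, a lysosomal protease gene, rose (0.08), at 168 to 199 FPKM with Q140 and 157 to 191 FPKM without. Choroid plexus, thalamus, hippocampus, cholinergic, endothelial and pericyte markers had 0 calls. The part of these cell types in the result was not tested.

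More of these genes differed by sex than by Q140, as in the whole table. Of the 29, 6 were called for females against males, 3 higher and 3 lower, where 10.5% of all genes were called, 5.27% higher and 5.26% lower in females. The lower genes were Pdyn, Rasgrp2 and Ppp1r1b, and the higher ones Rasd2, Hpca and Arpp19.

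Pdyn was at 19.3 to 23.8 CPM in females, with a median of 21.6, and at 20.4 to 27.9 CPM in males, with a median of 23.7 (log2 difference -0.16, SE 0.0232, adjusted p = 3.71e-06). Rasgrp2 was at 15.95 to 22.3 CPM in females, with a median of 18.2, and at 17.01 to 23.4 CPM in males, with a median of 20.1 (-0.14, SE 0.0365, adjusted p = 0.00919). Ppp1r1b was at 61.2 to 82.6 CPM in females, with a median of 73.4, and at 60.1 to 86.3 CPM in males, with a median of 78.6 (-0.10, SE 0.0324, adjusted p = 0.0339). The sexes overlapped for each gene, and in Pdyn, the dynorphin precursor, they were the most apart for their spread.

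Rasd2 was at 84.9 to 108 CPM in females, with a median of 98.3, and at 75.6 to 109.6 CPM in males, with a median of 90.5 (0.13, SE 0.0297, adjusted p = 0.00395). Hpca was at 441 to 527 CPM in females, with a median of 489, and at 422 to 499 CPM in males, with a median of 469 (0.06, SE 0.0160, adjusted p = 0.00706). Arpp19 was at 336 to 406 CPM in females, with a median of 379.8, and at 319 to 389 CPM in males, with a median of 362 (0.06, SE 0.0168, adjusted p = 0.0117). The summed striatal list was at 49.96 to 59.9 FPKM in females and 48.6 to 58.8 FPKM in males, and the upper layer markers at 227 to 291 and 223 to 288 FPKM. With the mean log2 CPM of each layer list as covariates, Rasgrp2 differed by -0.13 (adjusted p = 0.0598) and Ppp1r1b by -0.12 (adjusted p = 0.0664). These calls were lost with differences of about the same size. With the mean of the striatal list as a covariate, Hpca differed by 0.05 (adjusted p = 0.0584), Rasgrp2 by -0.12 (0.0549) and Arpp19 by 0.05 (0.0892).

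**Figure D4:**
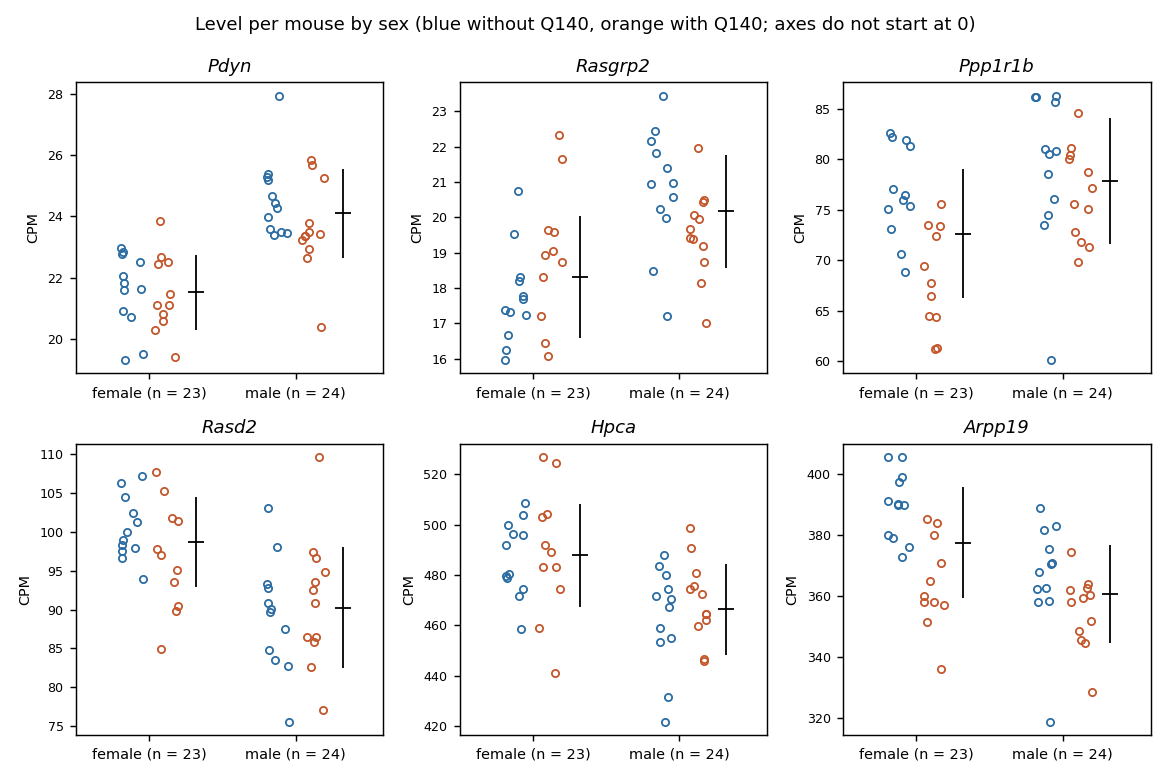
CPM in each mouse of the 6 genes called between the sexes, with the mean and SD beside the points, blue without Q140 and orange with it. Pdyn, Rasgrp2 and Ppp1r1b were lower in the 23 females and Rasd2, Hpca and Arpp19 higher, with overlap in each.

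The effect of Q140 was not shown to differ between the sexes. 0 of the 29 genes were called, as were 0% of all genes, and 1 of the 29 had an unadjusted p under 0.05, beside 4.01% of all genes. It was Rasgrp2, for which the Q140 effect was 0.09 in females and -0.09 in males (difference 0.19, SE 0.0685, adjusted p = 1.0). Ppp1r1b differed by -0.17 with Q140 in females and by -0.05 in males (difference -0.12, SE 0.0632, adjusted p = 1.0). The Q140 effect on Arpp21 was -0.13 and -0.09, on Arpp19 -0.10 and -0.05, and on Rgs4 -0.10 and -0.05, in females and males.

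Some of the genes varied together among mice of the same genotype and sex. Pearson's r and Spearman's rho of log2 CPM were computed after removal of each group's mean, for all 406 pairs over 47 mice, with 100000 permutations within groups. In 46 pairs both passed the adjusted threshold, 26 positive and 20 negative, and 23 of 29 genes were in at least 1 such pair. The weakest had an absolute r of 0.422, a size reached by 65 of the 406 pairs and by 6.31% of all 183811551 pairs of tested genes, and the median r of the 406 pairs was 0.0059. The mice share plates, dissection and depth differences, and levels of 1 mouse share a library. Mice with the same number in their library names also deviated together over all genes (mean r 0.183, against -0.00868 for other numbers), which the permutations do not take into account. With that number's means also removed, all 46 pairs kept their sign and 39 still reached 0.422 in their own direction. No permutations were run in that setting. Removing more means leaves less independent variation, so r scatters more widely, and 0.422 is no test threshold there. Whether the pairs hold beyond the shared number was not tested.

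The 5 strongest pairs joined Arpp19, Hpca, Ppp1r1b, Pde1b and Rgs4, all well expressed. Arpp19 and Hpca had an r of 0.793 (rho 0.796; r 0.769 without the 2 mice farthest from the median), and Ppp1r1b and Arpp19 one of 0.778 (rho 0.714; 0.672 without 2). Ppp1r1b and Hpca had 0.777 (rho 0.765; 0.746 without 2), Ppp1r1b and Pde1b 0.773 (rho 0.768; 0.754 without 2) and Arpp19 and Rgs4 0.719 (rho 0.627; 0.629 without 2). The permutation p of r was 1e-05 for the first 4, the smallest these permutations can give, and 3e-05 for the last (adjusted p = 0.00101 and 0.00122). With the library-name number removed, the 5 values of r were 0.742, 0.766, 0.708, 0.657 and 0.819, in the same order.

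Other pairs, chosen after their values were seen, ran the opposite way. Arpp21 and Scn4b had an r of -0.70 (rho -0.53, adjusted p = 0.0154 and 0.0261), which was -0.49 without the 2 farthest mice and -0.36 with library-name number means also removed. Gng7 and Dclk3 had -0.70 (rho -0.70, adjusted p = 0.00122 and 0.00116). Drd1 and Bcl11b, a receptor and a transcription factor of deep layer cortex as well as striatum, varied together (r 0.714, rho 0.653, adjusted p = 0.00187 and 0.00116). Drd1, Bcl11b and Scn4b followed Foxp2, a deep layer and striatal transcription factor outside the 29, with r of 0.764, 0.770 and 0.748. By contrast, Arpp21 had -0.73 with Foxp2. For Foxp2 only r is given, and how far it rests on single mice is not shown here. WT M1 stood apart from its group in both Arpp21 and Bcl11b. In that family of 522 pairs of a gene with a striatal gene outside the list, 17 pairs passed by both measures, 8 positive and 9 negative. Rgs9 was in 5 called pairs, all negative, and Drd2, Gpr6, Pde10a, Pdyn, Ryr1 and Tac1 were in 0.

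**Figure D5:**
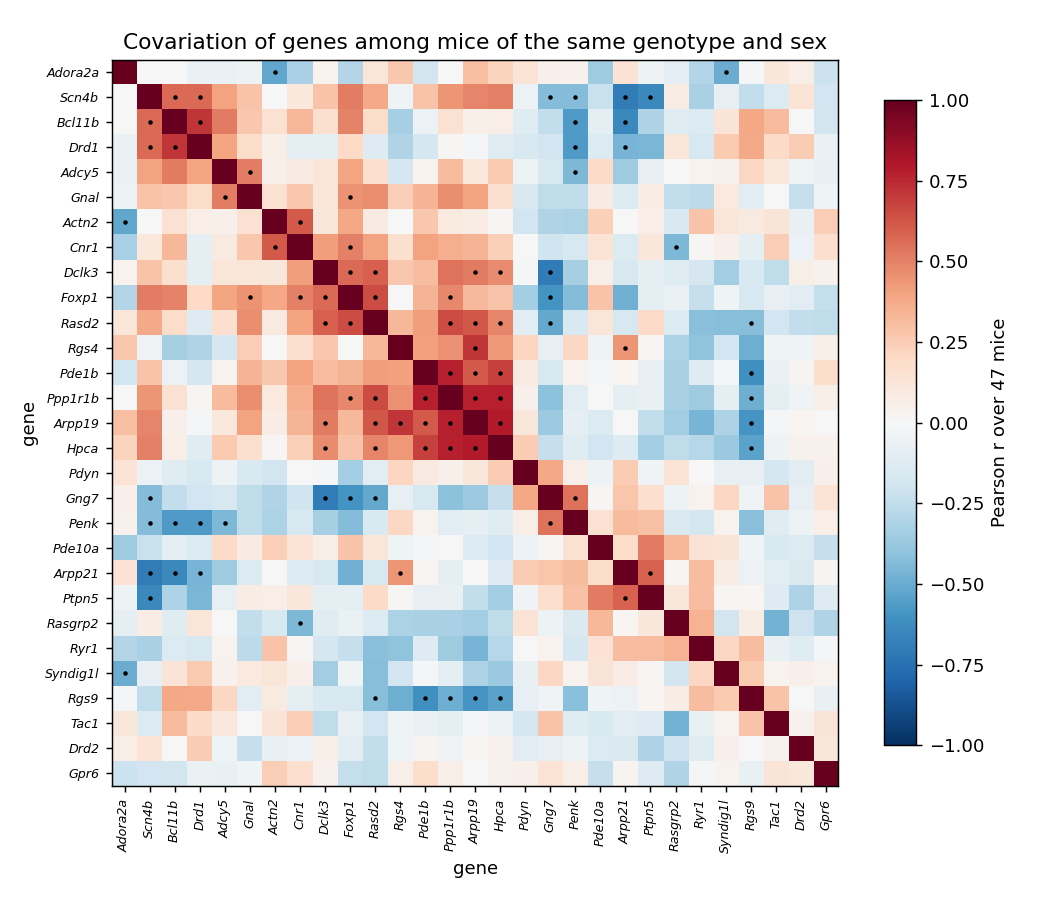
Pearson r between each pair of the 29 genes over 47 mice after genotype and sex means were removed, ordered by similarity, with black dots where both r and rho passed the adjusted threshold. A block of Pde1b, Ppp1r1b, Arpp19 and Hpca stands out in red, and Rgs9 in blue against it.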

How the data were processed

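The authors deposited raw counts per gene and FPKM per gene for 47 cortical libraries. Per the submitters' processing notes, STAR 2.7.5c, SAMtools 1.10 and HTSeq 0.12.3 were used with GRCm38 and mm10. Per the labels' protocols, the library kit was stranded. The annotation release and the strand setting were not given in the sources used here.

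Counts were fitted in edgeR 4.0.16 (R 4.3.3) with the robust quasi-likelihood method, TMM, genotype means and sex, all 47 libraries in 1 fit. filterByExpr (minimum count 10) kept 19174 genes, and p-values were adjusted by Benjamini-Hochberg over all of them. The script was tested on simulated data. DESeq2 1.42.0 and limma 3.58.1 (log2 of FPKM plus 0.1 or 1) were alternatives. The filter left Isl1 untested. P-values measure the spread between these samples, which the titles number as separate mice. Replicate pairs differed by a chi-square per gene of 3.86 to 23.7, so none was a copy, and labelled sex matched in 47 of 47 libraries.

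Named genes were those with an adjusted p under 0.05 in any contrast, the 5 further genes with the smallest p for Q140, the 3 highest and 3 lowest by FPKM, the pathway-defining genes, up to 8 called genes of each other list, and the 5 pairs with the largest r. The members and lists were chosen with earlier results of these data known. Some called genes of the other lists are not reported here.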

Additional observations from a re-analysis of the deposited data

Results flagged for a closer look

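Single mice stood far from the others of their genotype in 18 of 174 checks (29 genes in 6 groups) by Dixon's test, where chance flags about 1 in 20, or 8.7. All values are CPM. In Ccdc82+/- F4, Penk was at 52.8 (others 31.6 to 37.8), Tac1 at 5.35 (6.56 to 7.88), Rgs9 at 6.20 (7.95 to 9.90) and Bcl11b at 45.7 (52.6 to 59.5). In Ccdc82+/- M1, Ppp1r1b was at 60.1 (74.5 to 86.2), Arpp19 at 319 (362 to 397) and Rasd2 at 75.6 (89.7 to 102). In WT M1, Arpp21 was at 513 (400.3 to 443) and Bcl11b at 39.6 (48.8 to 56.8). In Ccdc82-/- M4, Drd2 was at 0.281 (0.447 to 0.636) and Ptpn5 at 255 (199 to 218). In Q140 Ccdc82-/- F1, Gpr6 was at 0.336 (0.701 to 1.15) and Pde10a at 125 (72.9 to 85.3).

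Pde10a was also high in WT F1, at 128 (68.8 to 92.1), and both of these libraries carry the number 18 in their names. Gnal stood apart in WT M4 at 132 (139.6 to 145), in Ccdc82-/- F1 at 153 (129 to 139) and in Q140 M4 at 133 (138 to 141). Syndig1l was at 1.76 in WT F3 (1.05 to 1.25).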

How the results depend on the processing

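Signs reversed in 2 values that were not called. Leaving out single mice that stood apart, chosen after seeing the data, gave -0.0214 to 0.0205 for Scn4b on WT (0.06 with all mice) and -0.0495 to 0.0885 for Pde10a on Ccdc82-/- (0.07 with all mice, and -0.0572 without WT F1 and Q140 Ccdc82-/- F1). The 3 genes called with Q140 were 4 with DESeq2 (Penk added), 3 with DESeq2 size factors, 3 with upper quartile scaling, 2 with no filter on low counts (Rgs4 lost), 3 without a sex term, 1 when plate column was added (Arpp21), 3 with the striatal list as a covariate, 4 with a random block for the library-name number, 2 on FPKM with either pseudocount, and 2 to 4 over 47 fits without 1 mouse each. Arpp21 and Arpp19 were called in 47 of these fits and Rgs4 in 30. Chosen after seeing the data, leaving out the 5 mice that stood apart gave 4 (Ppp1r1b added, adjusted p = 0.0181) and layer covariates gave 3. For Q140 against WT, DESeq2 called 1 of the 29 genes against 0. For sex, the 6 calls were 7 with DESeq2, 8 with the plate column, 4 with the striatal covariate, 6 without the 5 mice and 5 with layer covariates.

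Same-numbered mice of the same sex had a mean r of 0.156 over groups, against -0.0222 for other pairs, but r ran from -0.05 to 0.45, and 13 of 47 mice correlated best with their own number. The numbers were therefore not taken to pair the mice. The number in the library names had a mean r of 0.183 and a correlation of 0.142 in the random block fit. With the replicate block, 3 genes were called with Q140. Drd2, Gpr6 and Isl1 had the fewest counts, and so the largest counting error for their level.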
